A study of Mus musculus with 11 samples.

Results

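The FGF ligands of the tailbud described here are 9 genes (Fgf3, Fgf4, Fgf5, Fgf8, Fgf9, Fgf10, Fgf15, Fgf17 and Fgf18), chosen by gene name from the 56748 genes of the count table. Each of the 9 had a row of its own and passed the filter on low counts, which left 16572 genes for testing. They were read in 11 polyA RNA libraries from microdissected mouse tailbuds at embryonic day 8.5. Both mutants were homozygous: by genotype, 4 libraries were labelled Fgfr1 FCSPG/FCSPG, 3 were labelled Fgfr1 FCPG/FCPG and 4 were wild type (WT), and the labels give no treatment, strain or sex. FGFR1 is a receptor tyrosine kinase for FGFs, and both mutant lines carry point mutations in its residues that bind signalling effectors. The series sets each mutant against WT, and the mutants against each other, to follow mesoderm transcription where canonical FGF signalling is or is not intact. The labels do not say whether a library is 1 embryo or a pool, so the p-values measure the spread between libraries, which may be technical.

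FGFs are secreted proteins that bind FGF receptors together with heparan sulphate chains and switch on the ERK pathway. In the mouse tailbud, Fgf8 and Fgf4 are the ligands known to keep the presomitic mesoderm immature until a cell reaches the zone where somites form. Fgf17 and Fgf18 belong to the same subfamily as Fgf8, Fgf5 to that of Fgf4, and Fgf3 and Fgf10 to that of Fgf7. Fgf9 stands for a further subfamily, and Fgf15 is an endocrine FGF that later controls bile acid synthesis. Fgf5 is a classic marker of the epiblast, and Fgf10 is best known as the mesenchymal signal of limb and lung buds.

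The libraries held 16014698 to 25453070 counts, of which the 9 ligands took 1760 to 5271. CPM below are counts relative to the TMM-scaled library size, and CPM per kb divides them by the deposited gene length so that genes can be set against each other. The labels name neuromesodermal progenitors, somitic mesoderm and intermediate mesoderm as the cell types. T, the brachyury transcription factor that marks the tailbud, was at 62.2 to 126 CPM in FCSPG libraries, at 23.2 to 106 CPM in FCPG libraries and at 100.1 to 140 CPM in WT libraries. The 11 genes of intermediate and lateral mesoderm summed to 476 to 830 CPM in FCSPG, 463 to 1485 CPM in FCPG and 458 to 756 CPM in WT libraries. The 15 tailbud and streak genes summed to 749 to 1687 CPM in FCSPG, 340 to 1784 CPM in FCPG and 662 to 1488 CPM in WT libraries. FCPG library 45 stood apart, with 0.473 CPM of Wnt3a, a tailbud Wnt ligand, against 13.9 and 47.4 CPM in FCPG libraries 46 and 19, 19.1 to 61.9 CPM in FCSPG libraries and 21.9 to 48.9 CPM in WT libraries. The 20 visceral endoderm genes, none of them at 0 in a whole group, summed to 966 to 4279 CPM in FCSPG, 1933 to 18224 CPM in FCPG and 225 to 1389 CPM in WT libraries. The visceral endoderm score, the mean log2 CPM of the 19 of them that passed the filter, was 7.20, 6.34, 5.01 and 7.31 in FCSPG libraries 13, 27, 30 and 32. It was 6.18, 9.27 and 7.33 in FCPG libraries 19, 45 and 46, and 4.62, 4.13, 0.97 and 5.65 in WT libraries 24, 25, 26 and 33. Y-linked transcripts were counted in FCSPG library 32 and in FCPG libraries 19 and 45, and were at 0 in the other libraries, all WT libraries among them. In bulk tissue, fewer cells of a type and less RNA per cell cannot be told apart.

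Promoters are shown for 4 ligands, Fgf9 and Fgf18 because their transcripts varied together between libraries, and Fgf3 and Fgf4 because they are neighbours on chromosome 7 and each varied with Fgf15, the next gene. RefSeq promoters (build GRCm38.p6, 250 bases before to 50 bases after the start, read 5' to 3' along the gene) were held for 6 of the 9 ligands and not for Fgf8, Fgf15 and Fgf17. They lie at chr14:58072436-58072735 on the plus strand for Fgf9, chr11:33147351-33147650 on the minus strand for Fgf18, chr7:144838362-144838661 on the plus strand for Fgf3 and chr7:144861136-144861435 on the plus strand for Fgf4. Capitals mark matches on either strand to 4 short motifs, CCGGAA of ETS factors, CTTTGA of TCF/LEF factors, GGTGTG of T-box factors and TATANA of the TATA box.
Fgf9: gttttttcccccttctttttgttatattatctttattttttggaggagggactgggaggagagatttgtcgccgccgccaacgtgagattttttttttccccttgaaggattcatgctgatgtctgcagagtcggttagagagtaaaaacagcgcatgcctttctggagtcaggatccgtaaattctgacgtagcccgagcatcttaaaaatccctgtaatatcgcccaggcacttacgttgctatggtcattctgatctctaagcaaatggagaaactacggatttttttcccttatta
Fgf18: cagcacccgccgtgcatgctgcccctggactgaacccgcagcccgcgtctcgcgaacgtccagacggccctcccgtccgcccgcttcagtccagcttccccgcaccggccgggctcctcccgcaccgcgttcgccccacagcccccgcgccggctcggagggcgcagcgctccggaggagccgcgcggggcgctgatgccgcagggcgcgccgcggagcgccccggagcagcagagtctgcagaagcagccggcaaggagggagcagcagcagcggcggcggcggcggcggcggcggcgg
Fgf3: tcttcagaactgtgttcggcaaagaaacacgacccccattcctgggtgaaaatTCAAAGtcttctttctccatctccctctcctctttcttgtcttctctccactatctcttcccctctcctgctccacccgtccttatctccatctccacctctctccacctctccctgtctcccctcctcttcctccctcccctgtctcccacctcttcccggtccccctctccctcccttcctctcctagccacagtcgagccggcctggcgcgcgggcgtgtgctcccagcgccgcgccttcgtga
Fgf4: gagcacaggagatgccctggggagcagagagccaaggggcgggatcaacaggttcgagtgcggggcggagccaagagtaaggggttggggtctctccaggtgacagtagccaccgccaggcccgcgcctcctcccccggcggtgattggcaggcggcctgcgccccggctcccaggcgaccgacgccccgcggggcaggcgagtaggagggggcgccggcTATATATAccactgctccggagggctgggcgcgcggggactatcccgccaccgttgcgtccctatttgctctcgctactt

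The 2 promoters whose transcripts varied most closely with Fgf17 held none of the 4 motifs. Their base composition was unlike, with 42.7% G and C in Fgf9 and 78.7% in Fgf18, against a median of 52.7% over 32851 RefSeq promoters of this length. The Fgf3 promoter held 1 TCF/LEF match at position -197 from the start, on the minus strand, a motif found in 16% of those promoters. The Fgf4 promoter held 2 overlapping TATA box matches at positions -30 and -28, a motif found in 24.7% of them. Of the others, the Fgf5 promoter held an ETS match at position -241 and a T-box match at -81, motifs found in 14.9% and 19% of promoters, and a TATA box match at position 35. The Fgf10 promoter held none.

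In the FCPG comparison with WT, Fgf17, Fgf18 and Fgf9 lay below every WT library in every FCPG library, 3 of 9 ligands against 6.98% of all tested genes. Fgf3 lay above, 1 of 9 against 7.57% of genes. In the FCSPG comparison with WT, the means of Fgf17, Fgf18 and Fgf9 were again below those of WT and the means of Fgf4, Fgf15 and Fgf3 above, with overlapping libraries. No ligand passed edgeR's adjusted threshold of 0.05 in any of the 3 comparisons, nor did any other of the 16572 genes (0% in each). The counts, tests and group spreads of each ligand follow, ordered by subfamily.

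**Figure D1:**
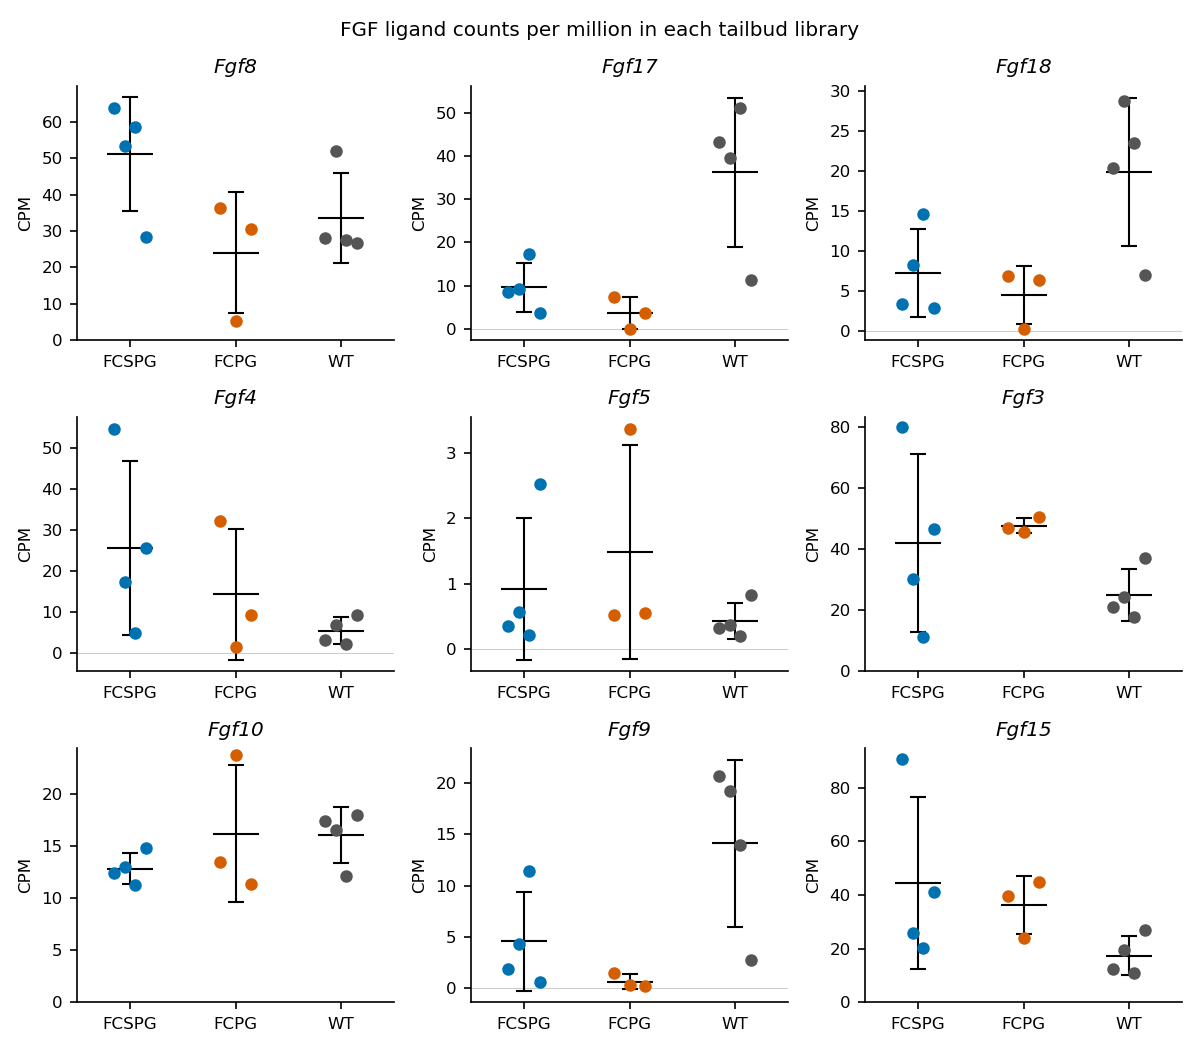
Each panel plots the CPM of 1 ligand (y axis) in the 4 FCSPG, 3 FCPG and 4 WT libraries (x axis), with points for libraries and black bars for the group mean ± SD. Fgf17, Fgf18 and Fgf9 sit below WT in all 3 FCPG libraries, and the FCPG points of Fgf3, from 45.5 to 50.4 CPM, sit above all 4 WT points.

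Fgf17 (ENSMUSG00000022101, chromosome 14, 70873643 to 70879708, minus strand, mm39) had the widest gap between mutants and WT within the FGF8 subfamily. It was at 8.43, 9.09, 17.4 and 3.58 CPM in FCSPG libraries 13, 27, 30 and 32, at 7.39, 0 and 3.58 CPM in FCPG libraries 19, 45 and 46, and at 43.2, 39.5, 51.1 and 11.3 CPM in WT libraries 24, 25, 26 and 33. The 0 in FCPG library 45 allows up to 0.177 CPM (3 counts, counting error only). All FCPG libraries were below the lowest WT library, number 33, while FCSPG library 30 lay above that library and below the other WT libraries. The means were 9.61 ± 5.71 CPM in FCSPG (SD, n = 4), 3.66 ± 3.69 CPM in FCPG (SD, n = 3) and 36.3 ± 17.3 CPM in WT (SD, n = 4). The log2 fold change was -3.30 ± 0.99 (SE) for FCPG against WT, with a 95% interval of -5.47 to -1.13 and an edgeR adjusted p of 0.116. DESeq2, fitted to the same libraries as an alternative, gave -3.30 with an adjusted p of 0.0475, and limma-voom gave -5.06. In the authors' deposited table it was listed at -3.30 with an adjusted p of 0.153. Left out one at a time, FCPG library 19 moved it to -4.34 with an edgeR adjusted p of 0.0310 and FCPG library 45 to -2.73 with 0.447. For FCSPG against WT it was -1.92 ± 0.82 (edgeR adjusted p = 0.446, DESeq2 adjusted p = 0.44). The authors' deposited table listed this FCSPG difference with an adjusted p of 0.0499.

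Fgf18 (ENSMUSG00000057967, chromosome 11, 33067430 to 33097400, minus strand, mm39) followed Fgf17 from library to library. It was at 3.29, 8.18, 14.6 and 2.87 CPM in FCSPG libraries 13, 27, 30 and 32, at 6.86, 0.236 and 6.32 CPM in FCPG libraries 19, 45 and 46, and at 20.3, 28.7, 23.5 and 6.98 CPM in WT libraries 24, 25, 26 and 33. The highest FCPG library lay just under the lowest WT library, again number 33, so the groups were narrowly apart. The means were 7.24 ± 5.48 CPM in FCSPG (SD, n = 4), 4.47 ± 3.68 CPM in FCPG (SD, n = 3) and 19.9 ± 9.28 CPM in WT (SD, n = 4). Against WT, the log2 fold changes were -2.15 ± 0.88 for FCPG and -1.46 ± 0.77 for FCSPG, with edgeR adjusted p of 0.191 and 0.490. Without FCPG library 45, which had 4 counts, the first was -1.60.

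Fgf8 (ENSMUSG00000025219, chromosome 19, 45725237 to 45731354, minus strand, mm39), the ligand this subfamily is named for, did not share that pattern. It was at 63.7, 53.4, 58.6 and 28.5 CPM in FCSPG libraries 13, 27, 30 and 32, at 36.4, 5.26 and 30.4 CPM in FCPG libraries 19, 45 and 46, and at 28.1, 52.0, 27.5 and 26.6 CPM in WT libraries 24, 25, 26 and 33. FCPG library 45 lay below every other library, and the remaining FCPG libraries fell inside the WT range. The means were 51.1 ± 15.6 CPM in FCSPG (SD, n = 4), 24.0 ± 16.5 CPM in FCPG (SD, n = 3) and 33.5 ± 12.3 CPM in WT (SD, n = 4). The log2 fold changes against WT were 0.61 ± 0.47 for FCSPG and -0.48 ± 0.52 for FCPG, both with an edgeR adjusted p of 0.620, and the second was -0.01 without FCPG library 45. Between the mutants it was 1.09 ± 0.53 for FCSPG against FCPG, with an interval of -0.07 to 2.24 and an edgeR adjusted p of 0.437. Without FCPG library 45 it was 0.61.

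Within each library, the level of Fgf17 relative to Fgf8 does not depend on library size. Per length, Fgf17 stood at 10.6%, 13.6%, 23.7% and 10.04% of Fgf8 in FCSPG libraries 13, 27, 30 and 32, at 16.2%, 0% and 9.41% in FCPG libraries 19, 45 and 46, and at 123%, 60.7%, 148.5% and 34.1% in WT libraries 24, 25, 26 and 33. Fgf18 stood at 5.87% to 28.4% of Fgf8 in FCSPG libraries, 5.11% to 23.6% in FCPG libraries and 29.9% to 97.5% in WT libraries. In both ratios all 7 mutant libraries lay below all 4 WT libraries, for Fgf18 only narrowly (28.4% against 29.9%). How many other pairs of genes have ratios that stand apart in this way was not counted, so this is a description. The mutants share the same WT libraries, so the 2 comparisons are not independent.

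Fgf9 (ENSMUSG00000021974, chromosome 14, 58308004 to 58350177, plus strand, mm39), a ligand with a role in the growth of many mesenchymal tissues, had the largest fold change of the 9 in the FCPG comparison. It was at 1.91, 4.33, 11.5 and 0.655 CPM in FCSPG libraries 13, 27, 30 and 32, at 1.48, 0.295 and 0.182 CPM in FCPG libraries 19, 45 and 46, and at 20.7, 19.2, 14.0 and 2.74 CPM in WT libraries 24, 25, 26 and 33. These stand for 28, 5 and 3 counts in the FCPG libraries and for 53 to 410 counts in the WT libraries. WT library 33 was again the lowest WT library and FCSPG library 30 again the highest mutant one. The means were 4.59 ± 4.84 CPM in FCSPG (SD, n = 4), 0.652 ± 0.717 CPM in FCPG (SD, n = 3) and 14.2 ± 8.14 CPM in WT (SD, n = 4). The log2 fold change for FCPG against WT was -4.40 ± 1.11, with an interval of -6.83 to -1.97. Its edgeR adjusted p was 0.104, the smallest value in that comparison but one shared with other genes. The co-receptor gene Klb had the same adjusted p with a smaller unadjusted edgeR p (0.000259, against 0.00204 for Fgf9). DESeq2 gave Fgf9 an adjusted p of 0.000254. EdgeR called it too when FCPG library 19 was left out (-5.86, adjusted p = 0.0214) and when no filter on low counts was used (adjusted p = 0.0347). In the authors' deposited table it was listed with an adjusted p of 1.07e-05. For FCSPG against WT it was -1.62 ± 0.84 (edgeR adjusted p = 0.483), and for FCSPG against FCPG 2.78 ± 1.05 with an interval of 0.47 to 5.08 (edgeR adjusted p = 0.435). Without FCSPG library 30 the difference between the mutants was 1.79, and without FCPG library 19 it was 4.24.

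Fgf3, Fgf4 and Fgf15 lie side by side on chromosome 7 of mm39, all on the plus strand and within 62.9 kb. Fgf3 (ENSMUSG00000031074, 144391820 to 144398173), which patterns the inner ear and the tail, was at 79.7, 30.2, 11.2 and 46.4 CPM in FCSPG libraries 13, 27, 30 and 32. It was at 46.9, 45.5 and 50.4 CPM in FCPG libraries 19, 45 and 46, and at 21.1, 24.4, 17.7 and 37.0 CPM in WT libraries 24, 25, 26 and 33. All 3 FCPG libraries lay above all 4 WT libraries and close together, while the FCSPG libraries spanned a range wider than that of the rest. The means were 41.9 ± 29.0 CPM in FCSPG (SD, n = 4), 47.6 ± 2.52 CPM in FCPG (SD, n = 3) and 25.05 ± 8.42 CPM in WT (SD, n = 4). Log2 fold changes against WT were 0.93 ± 0.48 for FCPG (edgeR adjusted p = 0.283) and 0.74 ± 0.45 for FCSPG (edgeR adjusted p = 0.535), the second at 0.22 without FCSPG library 13. In the authors' deposited table the FCPG difference was listed with an adjusted p of 0.0202, while the DESeq2 alternative gave an adjusted p of 0.211.

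Fgf4 (ENSMUSG00000050917, 144401104 to 144418980), which together with Fgf8 keeps presomitic cells undifferentiated, was at 54.6, 17.3, 5.02 and 25.6 CPM in FCSPG libraries 13, 27, 30 and 32, at 32.1, 1.54 and 9.36 CPM in FCPG libraries 19, 45 and 46, and at 3.22, 6.99, 2.37 and 9.36 CPM in WT libraries 24, 25, 26 and 33. Of the FCSPG libraries, 3 of 4 lay above every WT library. The FCPG libraries lay on both sides of the WT range. The means were 25.7 ± 21.1 CPM in FCSPG (SD, n = 4), 14.3 ± 15.9 CPM in FCPG (SD, n = 3) and 5.49 ± 3.27 CPM in WT (SD, n = 4). Against WT, FCSPG had a log2 fold change of 2.23 ± 0.86, with an interval of 0.34 to 4.11, and FCPG 1.39 ± 0.89. The edgeR adjusted p were 0.446 and 0.383. The FCPG value rested on FCPG library 19, without which it was -0.01.

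Fgf15 (ENSMUSG00000031073, 144450268 to 144454690) was at 90.7, 25.9, 20.2 and 41.0 CPM in FCSPG libraries 13, 27, 30 and 32, at 39.6, 24.0 and 44.8 CPM in FCPG libraries 19, 45 and 46, and at 12.3, 19.4, 11.1 and 27.0 CPM in WT libraries 24, 25, 26 and 33. The groups overlapped through WT library 33, the WT library with the most of all 3 clustered ligands. The means were 44.5 ± 32.0 CPM in FCSPG (SD, n = 4), 36.1 ± 10.8 CPM in FCPG (SD, n = 3) and 17.4 ± 7.36 CPM in WT (SD, n = 4). The log2 fold changes against WT were 1.35 ± 0.46 for FCSPG, with an interval of 0.35 to 2.35 (edgeR adjusted p = 0.446), and 1.05 ± 0.48 for FCPG (edgeR adjusted p = 0.231). Without FCSPG library 13 the FCSPG value was 0.73. An antisense lncRNA, Gm26793, overlaps Fgf15 with 17 to 58 counts per library, and the counting's use of strand is not given in the sources used here.

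The window of 500 kb on each side of the cluster held 27 genes, of which 13 were tested. Against WT, the 3 ligands had the largest FCSPG differences among them. Ano1, a chloride channel gene and the nearest tested protein-coding neighbour upstream, differed by 0.44 ± 0.51 in FCSPG and 0.91 ± 0.54 in FCPG (log2, edgeR adjusted p = 0.743 and 0.347). Downstream, LTO1 differed by 0.02 ± 0.12 in FCSPG and -0.13 ± 0.14 in FCPG, and Ccnd1, the cyclin D1 gene, by -0.01 ± 0.26 in FCSPG and -0.42 ± 0.29 in FCPG. Cttn, the cortactin gene further upstream, differed by 0.04 ± 0.10 in FCSPG and 0.31 ± 0.11 in FCPG (edgeR adjusted p = 0.879 and 0.142), and was the 1 neighbour beyond 2 SE in either mutant.

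**Figure D2:**
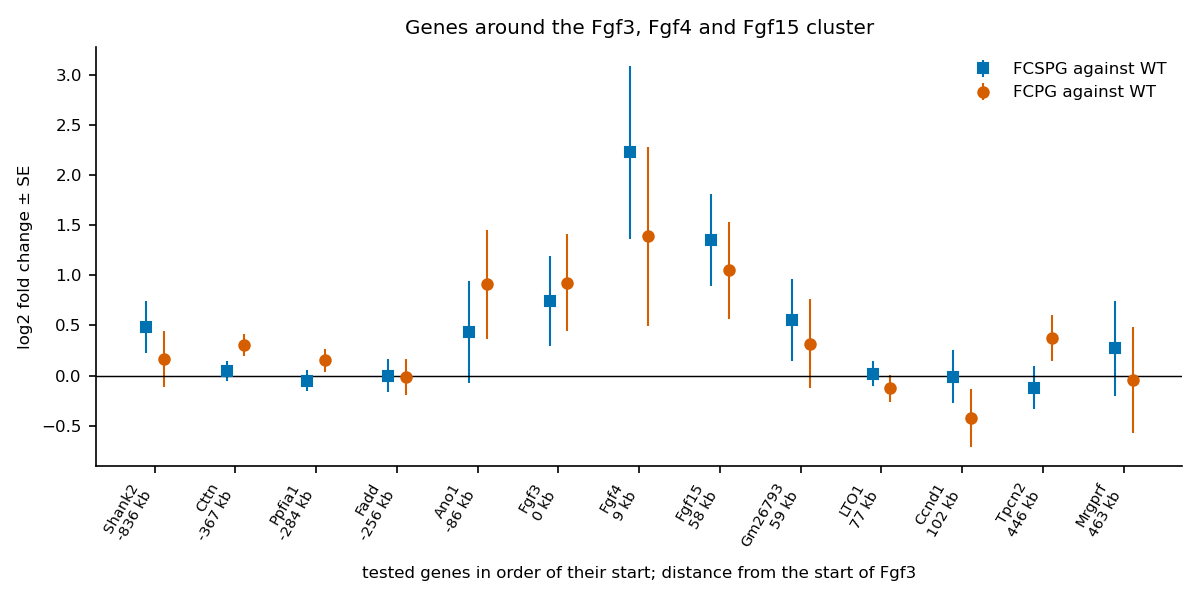
Log2 fold changes against WT with their SE (y axis) for the 13 tested genes within 500 kb of the Fgf3, Fgf4 and Fgf15 cluster, in the order of their starts (x axis, distance from the start of Fgf3), squares for FCSPG and circles for FCPG. Fgf4 and Fgf15 stand highest in FCSPG, at 2.23 and 1.35, while LTO1 and Ccnd1 lie near 0.

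Fgf5 (ENSMUSG00000029337, chromosome 5, 98402043 to 98424889, plus strand, mm39) was the ligand with the fewest counts, 4 to 57 per library. It was at 0.359, 0.571, 0.214 and 2.52 CPM in FCSPG libraries 13, 27, 30 and 32, at 0.528, 3.37 and 0.547 CPM in FCPG libraries 19, 45 and 46, and at 0.317, 0.376, 0.195 and 0.828 CPM in WT libraries 24, 25, 26 and 33. One library in each mutant, FCSPG 32 and FCPG 45, stood above all others, and the rest fell within the WT range. The log2 fold changes against WT were 1.11 ± 0.87 for FCSPG and 1.79 ± 0.92 for FCPG (edgeR adjusted p = 0.623 and 0.281). Without those libraries they were -0.15 and 0.33.

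Fgf10 (ENSMUSG00000021732, chromosome 13, 118806327 to 118928651, plus strand, mm39) had the smallest fitted differences from WT of the 9 in both mutants. It was at 12.4, 12.9, 11.2 and 14.8 CPM in FCSPG libraries 13, 27, 30 and 32, at 13.5, 23.7 and 11.4 CPM in FCPG libraries 19, 45 and 46, and at 17.4, 16.6, 12.1 and 18.01 CPM in WT libraries 24, 25, 26 and 33. FCPG library 45 was the highest of all 11 for Fgf10 and Fgf5. The log2 fold changes against WT were -0.32 ± 0.23 for FCSPG, with an interval of -0.83 to 0.19, and 0.01 ± 0.25 for FCPG, with an interval of -0.54 to 0.57. The edgeR adjusted p were 0.594 and 0.982.

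Between the mutants, the log2 fold changes of FCSPG against FCPG of the other ligands were within 2 SE of 0. They were 1.38 ± 0.92 for Fgf17, with an interval of -0.64 to 3.41, and 0.69 ± 0.84 for Fgf18, with an interval of -1.15 to 2.54 (edgeR adjusted p = 0.509 and 0.709). For the clustered ligands they were -0.19 ± 0.48 for Fgf3, 0.83 ± 0.90 for Fgf4 and 0.30 ± 0.49 for Fgf15 (edgeR adjusted p = 0.874, 0.671 and 0.787). Fgf5 stood at -0.68 ± 0.89 and Fgf10 at -0.33 ± 0.25 (edgeR adjusted p = 0.731 and 0.549). Of the 9 intervals between the mutants, that of Fgf10, from -0.88 to 0.22, alone stayed within 1 on the log2 scale.

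Counted over the 9 ligands, the FCPG comparison with WT had 3 that reached the unadjusted edgeR threshold of 0.05 on the lower side (Fgf17, Fgf18 and Fgf9), against 8.88% of all tested genes. It had 0 on the higher side, against 13% of all genes. DESeq2's adjusted threshold was passed by 2 ligands on the lower side (Fgf17 and Fgf9), against 2.77% of genes, and by 0 on the higher side, against 6.35%. All FCPG libraries lay below all WT libraries for 3 ligands, against 6.98% of genes, and above them for 1 (Fgf3), against 7.57%. The median log2 fold change of the 9 was 0.01, against 0.0019 over all genes, with 5 ligands above 0 and 4 below.

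In the FCSPG comparison with WT, the unadjusted threshold was reached by 2 ligands on the higher side (Fgf4 and Fgf15), against 6.24% of all genes, and by 1 on the lower side (Fgf17), against 4.76%. DESeq2's adjusted threshold was passed by 0 ligands, against 0.133% of genes on the higher side and 0.115% on the lower side. For 0 ligands did the groups stand apart, against 4% of genes higher and 3.35% lower. The median was 0.61, against -0.00060 over all genes. In the FCSPG comparison with FCPG, 1 ligand (Fgf9) reached the unadjusted threshold on the higher side, against 4.77% of genes, and 0 on the lower side, against 6.67%. DESeq2 passed 0 ligands, against 0.00605% of genes higher and 0% lower, and 0 ligands had groups apart, against 2.34% of genes higher and 2.33% lower. The median was 0.69, against -0.0078 over all genes.

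**Figure D3:**
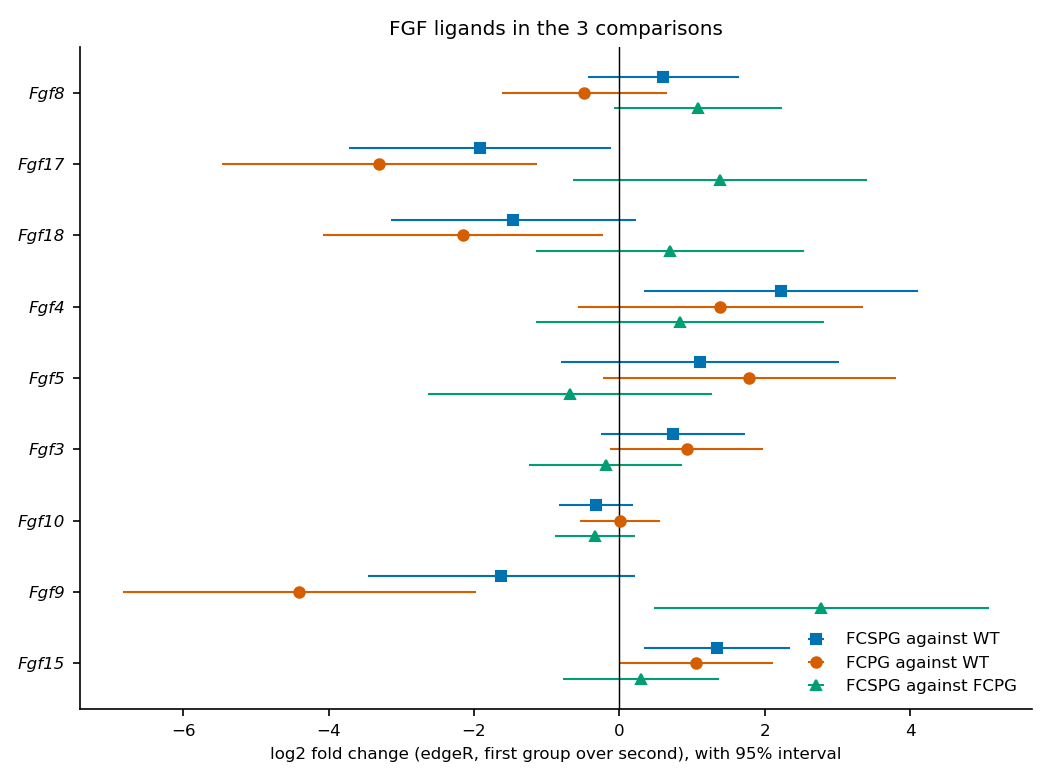
Log2 fold changes with their 95% intervals (x axis, edgeR) for the 9 ligands (y axis), squares for FCSPG against WT, circles for FCPG against WT and triangles for FCSPG against FCPG. The FCPG intervals of Fgf17, Fgf18 and Fgf9 lie below 0, from -5.47 to -1.13 for Fgf17, while those of Fgf10 cover 0.

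Per length, the 9 ligands together reached 94.3 ± 30.5 CPM per kb in FCSPG (SD, n = 4), 64.8 ± 23.4 CPM per kb in FCPG (SD, n = 3) and 88.0 ± 19.7 CPM per kb in WT (SD, n = 4). The group ranges overlapped, from 71.4 to 139 in FCSPG, 38.6 to 83.8 in FCPG and 64.8 to 113 CPM per kb in WT. Fgf17, Fgf18 and Fgf9 together made up 5.87%, 15.97%, 29.8% and 6.55% of it in FCSPG libraries 13, 27, 30 and 32, 12.5%, 0.681% and 10.4% in FCPG libraries 19, 45 and 46, and 54.9%, 45.8%, 60.2% and 20.4% in WT libraries 24, 25, 26 and 33. Fgf3, Fgf4 and Fgf15 together made up 58.2%, 32.5%, 15.5% and 58.0% in the FCSPG libraries, 51.5%, 72.4% and 54.5% in the FCPG libraries, and 16.4%, 16.8%, 13.6% and 42.7% in the WT libraries, in the same order. WT library 33 had the mix nearest to the mutants, and FCSPG library 30 the mix nearest to WT.

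**Figure D4:**
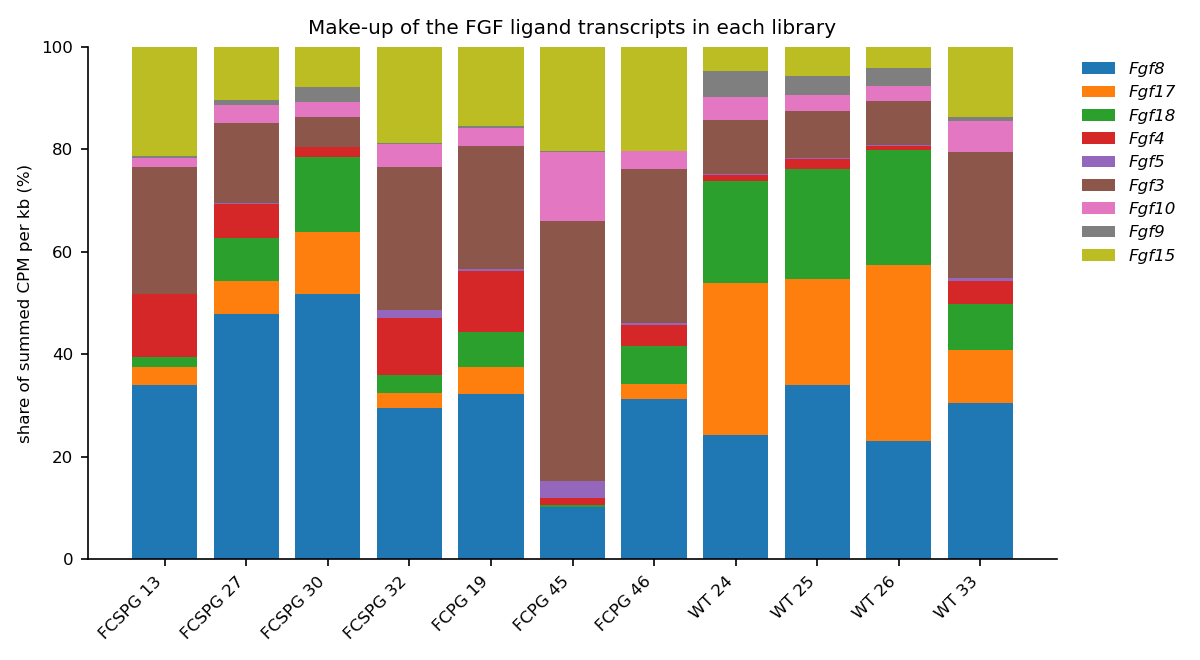
Each stacked bar is 1 library (x axis, FCSPG, FCPG, then WT) and shows the share of the summed CPM per kb of the 9 ligands held by each ligand (y axis, percent). The orange, green and grey blocks of Fgf17, Fgf18 and Fgf9 fill 45.8% to 60.2% of WT libraries 24, 25 and 26. They fill 20.4% of WT library 33, less than the 29.8% of FCSPG library 30, the highest mutant library.

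By mean CPM per kb, the order in FCSPG libraries was Fgf8, Fgf3, Fgf15, Fgf4, Fgf18, Fgf17, Fgf10, Fgf9 and Fgf5, running from 37.8 to 0.366. In FCPG libraries it was Fgf3, Fgf8, Fgf15, Fgf4, Fgf18, Fgf10, Fgf17, Fgf5 and Fgf9, from 20.5 to 0.140. In WT libraries it was Fgf8, Fgf17, Fgf18, Fgf3, Fgf15, Fgf10, Fgf9, Fgf4 and Fgf5, from 24.8 to 0.171. Most neighbours in these orders differed by less than the larger of their SDs. The exceptions were Fgf8 over Fgf3 and Fgf10 over Fgf9 in FCSPG, Fgf15 over Fgf4 in FCPG, and Fgf3 over Fgf15 and Fgf4 over Fgf5 in WT. Fgf17 was thus second in WT and sixth or lower in the mutants, and Fgf8 was the top ligand in 4 of 4 FCSPG, 2 of 3 FCPG and 2 of 4 WT libraries. The authors' deposited FPKM gave the same order in 3 of 3 groups.

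Over the 11 libraries, the log2 CPM of some ligands ran together. All 36 pairs were examined by permutation of libraries, and 5 pairs had a positive and 5 a negative Pearson r with an adjusted p under 0.05. The share of all other gene pairs that would reach it was not counted, so running together cannot be called particular to the ligands. Fgf17 and Fgf18 had r = 0.965 and rho = 0.936 (permutation test, p = 5e-05 and 9e-05, adjusted p = 0.00144 and 0.00162). Without FCPG library 45 and WT library 26, the farthest from the median of Fgf17, r was 0.878, and over the deviations from the group means it was 0.956. Fgf9 ran with Fgf17 (r = 0.825, rho = 0.936, permutation p = 8e-05 each, adjusted p = 0.00144 and 0.00162), at 0.958 without the same libraries and 0.569 within groups. Fgf3 and Fgf15 had r = 0.836 and rho = 0.909 (permutation p = 0.00164 and 0.00026, adjusted p = 0.00984 and 0.00312), at 0.934 without FCSPG libraries 30 and 13 and 0.871 within groups. Fgf4 and Fgf15 had r = 0.815 and rho = 0.791 (permutation p = 0.00221 and 0.00549, adjusted p = 0.0114 and 0.0288), at 0.866 without FCSPG library 13 and FCPG library 45. Fgf3 and Fgf4, neighbours in the genome, had r = 0.599 and rho = 0.664, which missed the threshold (permutation p = 0.0507 and 0.0305, adjusted p = 0.101 and 0.0733). The negative pairs with the largest r joined Fgf5 to Fgf18 (r = -0.842, rho = -0.700, permutation p = 0.00101 and 0.0207, adjusted p = 0.00727 and 0.0575) and to Fgf17 (r = -0.840, rho = -0.791, permutation p = 0.00066 and 0.00560, adjusted p = 0.00720 and 0.0288). Without FCPG library 45 and WT library 25, r of Fgf5 with Fgf18 was -0.731, and without FCPG library 45 and WT library 26, r of Fgf5 with Fgf17 was -0.628. Fgf5 with Fgf9 and Fgf8 with Fgf10 were at r = -0.715 and -0.740 (permutation adjusted p = 0.0428 each), and their rho missed the threshold. Fgf3 and Fgf9 ran against each other, with r = -0.761 and rho = -0.791 (permutation p = 0.00646 and 0.00538, adjusted p = 0.0291 and 0.0288), and at r = -0.928 without FCSPG libraries 30 and 13. The groups differ in mean for several of these ligands, so the pooled values hold both differences between and within groups.

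The 9 ligands were also set against the visceral endoderm score of the libraries. How many of all tested genes run with that score was not counted, so the values below cannot be called particular to the ligands. Fgf17 had r = -0.844 and rho = -0.955 (permutation p = 0.00296 and 2e-05, adjusted p = 0.00888 and 0.00018), with r = -0.941 without WT library 26 and FCPG library 45 and -0.711 within groups. Fgf18 had r = -0.845 and rho = -0.936 (permutation p = 0.00254 and 7e-05, adjusted p = 0.00888 and 0.000315), and Fgf9 had r = -0.814 and rho = -0.909 (permutation p = 0.00086 and 0.00027, adjusted p = 0.00774 and 0.00081). Without the same libraries r was -0.936 and -0.912, and within groups it was -0.717 and -0.601. In the other direction, Fgf3 had r = 0.694, Fgf15 0.671 and Fgf5 0.736 (permutation p = 0.0171, 0.0256 and 0.00924, adjusted p = 0.0308, 0.0385 and 0.0208). Their rho were 0.755, 0.745 and 0.745 (permutation p = 0.00999, 0.0111 and 0.0114, adjusted p = 0.0171 each). Without those libraries r was 0.777, 0.844 and 0.540, and within groups it was 0.576, 0.409 and 0.711. Fgf4 had r = 0.305 and rho = 0.291 (permutation p = 0.370 and 0.386, adjusted p = 0.370 and 0.496), but r = 0.737 without those libraries. Fgf8 had r = -0.375 and rho = -0.0545 (permutation p = 0.230 and 0.882, adjusted p = 0.296 and 0.882), and Fgf10 had r = 0.327 and rho = 0.100 (permutation p = 0.324 and 0.778, adjusted p = 0.364 and 0.875). Within groups, r of Fgf4, Fgf8 and Fgf10 was 0.0931, -0.459 and 0.794. The permutations moved libraries across groups that differ in the score. The pooled values and their p-values thus hold differences both between and within groups. WT library 33, the WT library with the highest score, was also the WT library with the least Fgf17, Fgf18 and Fgf9.

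**Figure D5:**
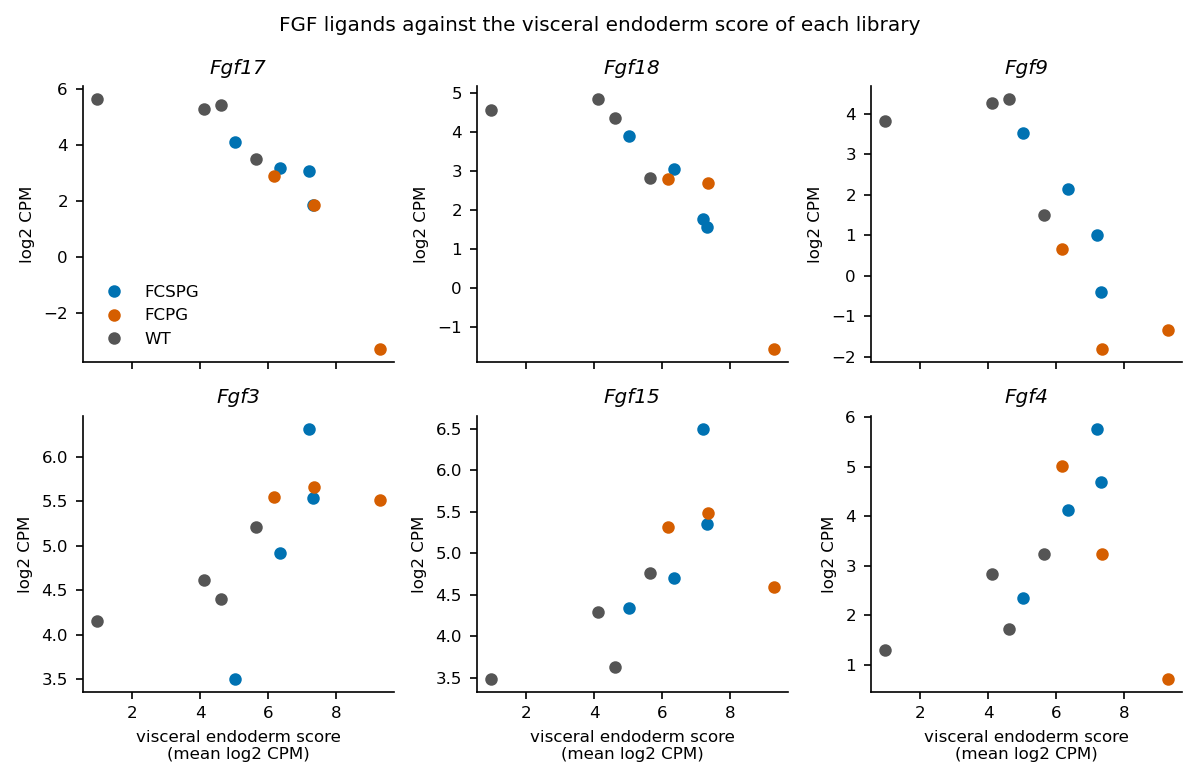
Log2 CPM of 6 ligands (y axis) against the mean log2 CPM of the tested visceral endoderm genes (x axis), 1 point per library, coloured by group. Fgf17, Fgf18 and Fgf9 fall along the score, which runs from 0.97 in WT library 26 to 9.27 in FCPG library 45. Fgf3 and Fgf15 tend to climb but are highest in FCSPG library 13, at 6.32 and 6.50. In FCPG library 45 they are at 5.51 and 4.59.

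With that score as a covariate in the edgeR fit, the log2 difference of FCPG from WT was -1.37 for Fgf17, -0.17 for Fgf18, -2.40 for Fgf9 and 0.02 for Fgf3, each with an adjusted p of 1. For FCSPG it was -0.38 for Fgf17, -0.07 for Fgf18, -0.43 for Fgf9, 1.76 for Fgf4 and 0.76 for Fgf15, again with an adjusted p of 1. In FCPG, Fgf4 was at 0.99 and Fgf15 at 0.37. The differences of Fgf17, Fgf18, Fgf9, Fgf3, Fgf4 and Fgf15 from WT were thus smaller in this fit than without the score. Others were larger, with 1.14 for Fgf8 and -0.75 for Fgf10 in FCSPG and -0.65 for Fgf10 in FCPG. Of all 16572 genes, 3624 had an unadjusted edgeR p under 0.05 in FCPG against WT without the score and 107 with it. Smaller differences in this fit thus cannot be called particular to the ligands. The lowest FCPG score, 6.18 in library 19, lay above the highest WT score, 5.65 in library 33. Score and genotype therefore cannot be told apart in FCPG against WT, and the FCPG values of this fit are not separate estimates of either. All 4 WT libraries lacked Y-linked counts, and with embryo sex as a covariate the FCPG differences were -2.66 for Fgf17, -3.54 for Fgf9 and 0.90 for Fgf3 (edgeR adjusted p = 0.595, 0.595 and 0.656). The part of either in the ligand levels was not tested.

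For each ligand, the 3 genes of at least 5 CPM with the most similar log2 CPM over the 11 libraries are given as a description. For Fgf17 they were Phf10, a chromatin remodelling subunit, Sdc1, the heparan sulphate carrier syndecan-1, and Ndnf, a secreted factor (r = 0.980, 0.977 and 0.976). For Fgf18 they were Gjc1, a gap junction gene, Gm17435 and the Hox gene Hoxd4 (r = 0.986, 0.984 and 0.976). For Fgf9 they were Lix1, Uhrf1, which maintains DNA methylation, and Btg1 (r = 0.976, 0.970 and 0.962). For Fgf8 they were Dlx5, a homeobox gene, Acyp1 and the Wnt ligand gene Wnt6 (r = 0.971, 0.967 and 0.953), with rho of 0.855, 0.936 and 0.745. For Fgf4 they were Gng3, Ccdc112 and Tcfl5 (r = 0.952, 0.950 and 0.937), for Fgf3 Snx15, Smarcd2 and Gpatch1 (r = 0.947, 0.945 and 0.940), and for Fgf15 Krtcap3, Klf5 and Ripk2 (r = 0.960, 0.959 and 0.955). For Fgf5 they were Spryd3, Myo10 and Dmgdh (r = 0.926, 0.920 and 0.908). Fgf10 had the least similar neighbours, Gm10123, Dmgdh and Oser1 (r = 0.813, 0.803 and 0.802). These values are the highest of 11111 genes and share the libraries' depth and tissue content.

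Of the 13 other FGF genes, 6 passed the filter and were tested. None reached the unadjusted edgeR threshold in any comparison. Fgf13, which encodes an intracellular FGF homologue that is not secreted, was the most abundant at 18.6 ± 2.68 CPM in FCSPG (SD, n = 4), 15.5 ± 5.40 CPM in FCPG (SD, n = 3) and 16.04 ± 2.89 CPM in WT (SD, n = 4). Fgf1 was the lowest of these against WT in FCSPG, at a log2 fold change of -1.25 ± 0.60 (edgeR adjusted p = 0.465).

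Of 7 tested receptor and co-receptor genes, 3 reached the unadjusted threshold on the higher side in each mutant and 0 on the lower side. Over all genes the shares were 6.24% higher and 4.76% lower in FCSPG, and 13% higher and 8.88% lower in FCPG. Fgfr3 was at 35.5 ± 8.72 CPM in FCSPG (SD, n = 4), 50.2 ± 21.1 CPM in FCPG (SD, n = 3) and 19.2 ± 5.24 CPM in WT (SD, n = 4). Fgfr4 was at 12.3 ± 3.07 CPM in FCSPG, 31.5 ± 32.0 CPM in FCPG and 5.51 ± 1.69 CPM in WT. Klb, the co-receptor that the product of Fgf15 uses with Fgfr4, was at 6.49 ± 3.56 CPM in FCSPG, 24.5 ± 26.3 CPM in FCPG and 1.28 ± 0.86 CPM in WT. Klb had log2 fold changes of 2.35 ± 0.75 in FCSPG and 4.27 ± 0.82 in FCPG against WT (edgeR adjusted p = 0.446 and 0.104). Fgfr1, the mutated receptor, was at 162 to 248 CPM in FCSPG, 178 to 242 CPM in FCPG and 169 to 209 CPM in WT libraries, which checks no genotype because a point mutation leaves the transcript countable.

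Of the 17 genes of ERK feedback and FGF targets, all tested, 4 reached the unadjusted threshold on the lower side in FCSPG and 3 in FCPG against WT, with 0 on the higher side in both. On the lower side stood 4.76% of all genes in FCSPG and 8.88% in FCPG, and on the higher side 6.24% and 13%. By direction alone the 17 were split, with 8 above WT and 9 below in each mutant. Dusp6, an ERK phosphatase that FGF signalling switches on, was at 86.9, 65.9, 92.9 and 63.1 CPM in FCSPG libraries 13, 27, 30 and 32, at 57.1, 72.5 and 80.4 CPM in FCPG libraries 19, 45 and 46, and at 119, 125, 161 and 80.0 CPM in WT libraries 24, 25, 26 and 33. Its log2 fold changes were -0.65 ± 0.21 in FCSPG and -0.79 ± 0.23 in FCPG (edgeR adjusted p = 0.446 and 0.115). Dusp4, a further phosphatase of the pathway, was at 87.2 ± 7.94 CPM in FCSPG (SD, n = 4) and 122 ± 24.0 CPM in WT (SD, n = 4), a log2 fold change of -0.49 ± 0.15 (edgeR adjusted p = 0.446). Spry4, a feedback inhibitor, was at 25.5 ± 5.26 CPM in FCSPG (SD, n = 4) and 41.5 ± 3.48 CPM in WT (SD, n = 4), a log2 fold change of -0.70 ± 0.20 (edgeR adjusted p = 0.446). Etv4, an ETS factor induced by FGFs, was at 48.1 ± 31.8 CPM in FCPG (SD, n = 3) and 108 ± 28.4 CPM in WT (SD, n = 4), a log2 fold change of -1.17 ± 0.47 (edgeR adjusted p = 0.183). In the other mutant these differences were smaller. They were -0.25 ± 0.16 for Dusp4 and -0.22 ± 0.22 for Spry4 in FCPG, and -0.68 ± 0.42 for Etv4 in FCSPG (edgeR adjusted p = 0.367, 0.585 and 0.54). The median log2 fold change of the 17 was -0.04 in FCSPG and -0.22 in FCPG, against -0.00060 and 0.0019 over all genes.

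Of 18 tested genes that make heparan sulphate or hold FGFs outside the cell, 1 was on the higher and 2 on the lower side of the unadjusted threshold in FCSPG, and 2 on the higher and 6 on the lower side in FCPG. The counts on the higher side are near the 6.24% and 13% of all genes, and the shares of all genes on the lower side were 4.76% and 8.88%. Sulf2, which trims sulphate from heparan chains, was at 110 ± 40.1 CPM in FCSPG (SD, n = 4), 96.9 ± 19.4 CPM in FCPG (SD, n = 3) and 197 ± 56.1 CPM in WT (SD, n = 4). Sdc4, a syndecan, was at 34.9 ± 7.45 CPM in FCSPG, 36.4 ± 21.4 CPM in FCPG and 17.4 ± 4.99 CPM in WT. In FCPG they differed from WT by -1.02 ± 0.30 (log2) for Sulf2 and 1.07 ± 0.35 for Sdc4 (edgeR adjusted p = 0.115 and 0.128).

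Among tissue lists, 15 of 16 presomitic and somite genes had lower fitted levels than WT in each mutant, with medians of -0.79 in FCSPG and -1.23 in FCPG (log2). Of all 16572 tested genes, 8297 were lower in FCSPG and 8247 in FCPG. The unadjusted threshold was reached on the lower side by 1 of the 16 in FCSPG, near the 4.76% of all genes, and by 6 in FCPG, against 8.88% of all genes. Meox2, a homeobox gene of the somites, was at 0.126 ± 0.168 CPM in FCPG (SD, n = 3) and 1.82 ± 0.76 CPM in WT (SD, n = 4), a log2 fold change of -3.73 ± 1.35 (edgeR adjusted p = 0.153). Dll3, a Notch ligand of the presomitic mesoderm, was at 26.9 ± 7.49 CPM in FCSPG (SD, n = 4), 21.7 ± 19.3 CPM in FCPG (SD, n = 3) and 67.4 ± 15.7 CPM in WT (SD, n = 4). The 15 tailbud and streak genes had medians of 0.13 in FCSPG and 0.06 in FCPG, and the 11 intermediate and lateral mesoderm genes had medians of -0.39 in FCSPG and 0.10 in FCPG. Of the 19 tested visceral endoderm genes, 14 in FCSPG and 18 in FCPG reached the unadjusted threshold, all higher, and their medians were 2.30 and 3.60. Among the 10 tested epiblast genes, 4 in each mutant did so, all higher, with medians of 1.17 in FCSPG and 1.24 in FCPG. The shares of all genes on the higher side were 6.24% in FCSPG and 13% in FCPG. The differences of these lists lie in the same libraries as those of the ligands, and their part in the ligand levels was not tested.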

How the data were processed

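RNA from 11 tailbud libraries was read as polyA RNA, and per the labels the library kit keeps strand. Per the submitters' processing notes, the authors used HISAT2, mm39 and featureCounts, with no versions given, and the deposited counts are whole numbers per gene. The deposited FPKM table covers the same libraries. Its values were a constant multiple of the count divided by gene length within each library, and it was used to check the order of the ligands. The authors also deposited log2 fold changes with p-values for genes with a p-value under 0.05, and the submitters' processing notes name DESeq2. These log2 values, first group over second per the file headers, were turned to mutant over WT and FCSPG over FCPG. The genotype in a column's name gave its group, and 0 columns were left over. Libraries are named by column number.

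Counts were tested with edgeR 4.0.16 in R 4.3.3 (quasi-likelihood F test, two-sided, TMM scaling, filterByExpr, 1 fit over all 11 libraries, group as the only term), with Benjamini-Hochberg adjustment over 16572 genes, which held at least 99.88% of each library's counts. SE is the log2 fold change divided by the root of F. EdgeR's common biological coefficient of variation was 0.325. Log2 CPM used a prior count of 2. Correlations used 100000 permutations. Motifs were searched on both strands. The test was tried on simulated data. Alternatives were DESeq2 1.42.0, limma-voom 3.58.1, DESeq2 size factors, no filter, a filter of 1 CPM in 3 libraries, the 2 groups alone, embryo sex from Y-linked counts, the visceral endoderm score as a covariate, libraries without Y-linked counts, and each library left out.

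The ligands and the gene lists were chosen with earlier results of these data known. All 9 ligands are named, with up to 3 of the genes with the smallest p of a list in the comparison described, and the 3 genes of highest r with each ligand. T, Wnt3a, Fgfr1, Fgf13 and the neighbours of the cluster were named outside this rule, after their values were seen.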

Additional observations from a re-analysis of the deposited data

Results flagged for a closer look

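Of 18 sets of 4 libraries (9 ligands in FCSPG and in WT), 2 held a library whose distance to its nearest neighbour took up more of the group's range than Dixon's 95% limit for 4 values, which chance passes in about 1 of 20 sets. Fgf5 in FCSPG library 32, at 2.52 CPM, lay above the other FCSPG libraries, which were at 0.214 to 0.571 CPM. That library carried Y-linked transcripts and had the highest visceral endoderm score of the FCSPG group. Fgf8 in WT library 25, at 52.0 CPM, lay above the other WT libraries, which were at 26.6 to 28.1 CPM, and inside the FCSPG range. The 3 FCPG libraries are too few for this rule.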

How the results depend on the processing

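Of 536 alternative values of the 27 ligand differences, 509 kept their direction and stayed short of the adjusted threshold, 5 passed it and 22 turned direction. The 5 are Fgf17 and Fgf9 in FCPG against WT with DESeq2 and without FCPG library 19, and Fgf9 with no filter on low counts. With 0 genes past the threshold in each comparison by edgeR (3624, 1823 and 1897 unadjusted for FCPG against WT, FCSPG against WT and FCSPG against FCPG), DESeq2 gave 1477, 41 and 1. For FCPG against WT, no filter gave 403, libraries without Y-linked counts gave 144 with 1 FCPG library left, assumed to vary like the others, and leaving out 1 library gave 0 to 2736, the highest without FCPG library 19 and 4 without WT library 33. For FCSPG against WT, leaving out 1 library gave 0 to 4, the highest without WT library 33. For FCSPG against FCPG, libraries without Y-linked counts gave 28, and leaving out 1 library gave 0 to 1063, the highest without FCPG library 19. The turned log2 values follow, and the cause was not tested. With the sex covariate, FCPG against WT gave 0.040 for Fgf8 and -0.34 for Fgf10, and FCSPG against WT gave -0.011 for Fgf5. With the visceral endoderm covariate, FCPG against WT gave 0.18 for Fgf8, -1.08 for Fgf5 and -0.65 for Fgf10, FCSPG against WT gave -0.77 for Fgf5 and -0.020 for Fgf3, and FCSPG against FCPG gave 0.30 for Fgf5. In libraries without Y-linked counts, Fgf10 was at -0.51 in FCPG against WT and 0.10 in FCSPG against FCPG, and Fgf5 at -0.16 in FCSPG against WT. For Fgf10 in FCPG against WT, limma-voom gave -0.027 and no filter -0.0068. Leaving out 1 library, FCPG against WT ranged from -0.0056 to 1.92 for Fgf4 and from -0.37 to 0.21 for Fgf10, and FCSPG against WT from -0.15 to 1.63 for Fgf5. FCSPG against FCPG ranged from -1.93 to 0.77 for Fgf5, -0.71 to 0.13 for Fgf3, -0.53 to 0.042 for Fgf10 and -0.32 to 0.54 for Fgf15. No paired analysis was possible because the columns carry none of the replicate numbers of the titles. Fgf5, with 4 to 57 counts, is limited by depth.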
